A study of Mus musculus with 58 samples.

Results

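The effect of losing 1 functional copy of Abca1 was examined in uninjured brain of mice that express human APOE3. The comparison holds 15 of the 58 mice of the series, all those with the APOE3 isoform and sham surgery, namely 7 E3/Abca1+/- sham mice (4 males, 3 females) and 8 E3/Abca1+/+ sham mice (4 males, 4 females). All 15 were homozygous for human APOE3 by targeted replacement of the mouse gene, were on the C57BL/6 background and were 3 months old at surgery. The Abca1+/- mice carried 1 functional copy of Abca1 in every cell, so no cell type is singled out by the model. Sham surgery was anaesthesia and a 4.5 mm craniotomy over the left parietal cortex without the impact that the TBI (traumatic brain injury) mice received, and tissue was taken 14 days later. Hippocampus and cortex of a 1.5 mm coronal slice were frozen together, RNA of an integrity number above 8 was sequenced, and the reads were counted per gene. In such bulk tissue, fewer cells of a type and less RNA per cell cannot be told apart. Mice of a group are separate animals, and the labels name no batch.

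ABCA1 is a membrane transporter that loads cholesterol and phospholipid onto lipid-poor apolipoproteins. In brain the main acceptor is APOE, which astrocytes and microglia secrete, and an APOE particle that is poorly lipidated is less stable. Transcription of Abca1 is driven by the liver X receptors (LXR), nuclear receptors that bind oxysterols and pair with RXR at a DNA element called DR4, a direct repeat whose repeat units are separated by a 4-base spacer. The row for mouse Apoe in the count table does not measure the human gene that replaced it, so the level of APOE3 itself was not analysed here.

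The promoter of Abca1 is shown because the gene is the one manipulated, and because a pattern taken from it was also found at some of the lipid genes described below. The window runs from 250 bases before to 50 bases after the annotated start of Abca1, at chr4:53159846-53160145 on the minus strand (RefSeq, GRCm38.p6, the mm10 build of the counts). The capitals mark the stretch that matches TGACCNNNNGTAACC, where N is any base. The 4 free bases of this pattern were not aligned to the 4-base spacer of the direct repeat, so the search was not one for DR4 elements as a class.
Abca1: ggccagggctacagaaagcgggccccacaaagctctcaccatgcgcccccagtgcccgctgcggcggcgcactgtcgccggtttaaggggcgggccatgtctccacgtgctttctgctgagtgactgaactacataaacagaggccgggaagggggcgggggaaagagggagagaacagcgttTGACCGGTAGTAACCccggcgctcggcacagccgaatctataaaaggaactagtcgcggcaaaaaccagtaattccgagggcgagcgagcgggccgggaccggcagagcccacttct
This 15-base pattern was written from the Abca1 sequence itself and searched on both strands, and no other motif was searched. It was found in 12 of 32851 such windows (0.0365%), which belong to 9 of 27025 genes. Among these 9 were Srebf1, the sterol regulatory factor that drives lipid synthesis, Fasn, the fatty acid synthase, and Acsl3, which activates fatty acids with coenzyme A. The stretches around the matches at Abca1 and these genes, each read 5′ to 3′ along the gene, were as follows.
Abca1: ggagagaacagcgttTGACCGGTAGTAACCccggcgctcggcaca
Srebf1: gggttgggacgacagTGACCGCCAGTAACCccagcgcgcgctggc
Fasn: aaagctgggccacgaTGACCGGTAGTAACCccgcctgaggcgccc
Acsl3: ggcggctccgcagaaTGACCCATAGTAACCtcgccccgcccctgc
They lie at chr4:53159933-53159977, chr11:60210624-60210668 and chr11:120824743-120824787 on the minus strand and at chr1:78657698-78657742 on the plus strand, and the first base of the match is at -67, -182, -225 and -112 from the annotated start. A match is a description of letters, not a measured binding site.

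Library depth differed with genotype. The E3/Abca1+/- sham libraries held 13059250 to 28184924 counts (median 22835554) and the E3/Abca1+/+ sham libraries 4421308 to 15941530 (median 9405274), and replicate 4 was the only Abca1+/- library below the deepest Abca1+/+ library. Depth and genotype therefore cannot be told apart in these mice. Xist and the Y-linked genes matched the labelled sex in all 15 mice, and no pair of libraries within a group agreed within sampling noise (chi-square per degree of freedom at least 2.20). The 50 genes with most counts held 13.2% and 13.7% of counts in E3/Abca1+/- replicates 6 and 7, both female, and at most 11.8% in every other mouse. The chi-square per degree of freedom was 7.92 between replicates 6 and 7. It was 40.8 to 62.4 between either of them and replicates 1, 2, 3 and 5. The cause was not tested.

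In all, 3 E3/Abca1+/- sham libraries stood apart from the other mice by RNA of the choroid plexus, the epithelium that secretes cerebrospinal fluid and lies next to the hippocampus. Ttr, the thyroid hormone carrier that defines this epithelium, was at 602, 952 and 808 CPM (counts scaled to a common library size) in replicates 2 (male), 4 (female) and 7 (female). In the other 4 E3/Abca1+/- mice it was between 1.73 and 8.71 CPM, and in the 8 E3/Abca1+/+ mice between 0 and 11.1 CPM. The 0 belongs to a library of 6745707 counts, so Ttr there was not detectable at this depth, and 3 counts in the shallowest library correspond to 0.679 CPM. Clic6, a chloride channel protein of the same epithelium, was at 13.5, 21.1 and 11.2 CPM in those 3 mice and at most 2.25 CPM in the other 12. Enpp2, the lysophospholipase D autotaxin, which oligodendrocytes also make, was at 458, 603 and 415 CPM against at most 235 CPM elsewhere. The summed level of the 12 choroid plexus markers was 1149, 1669 and 1293 CPM in these mice, 184 to 217 CPM in the other Abca1+/- mice and 197 to 268 CPM in the Abca1+/+ mice. Of the 7 markers with enough counts to be tested, all 7 had a log2 fold change above 0 (median 0.99) and Ttr passed the test (log2 fold change 6.19, SE 1.30, adjusted p = 0.0156 by edgeR's quasi-likelihood test, as for all adjusted p below). Without these 3 mice the median of the 7 was -0.24 and the log2 fold change of Ttr was 0.03 (adjusted p = 0.996). The results below are given with all 15 mice. Of the 44 named genes called beside Abca1, 4 were also called without these 3 mice, in a comparison of fewer mice (4 against 8), and the values of others without them are given in turn.

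**Figure D1:**
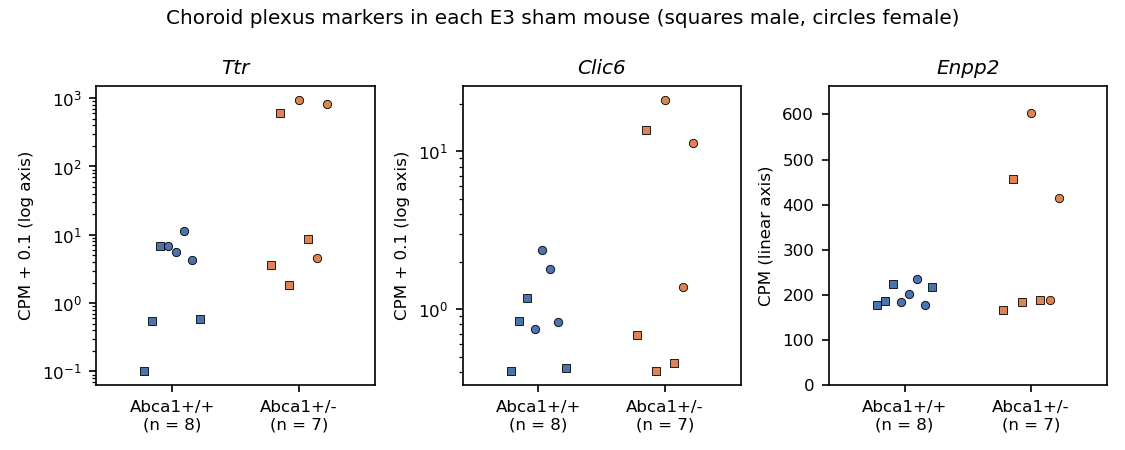
Each point is 1 mouse, with CPM of Ttr and Clic6 on a log axis (CPM + 0.1) and of Enpp2 on a linear axis. The same 3 of 7 E3/Abca1+/- sham mice lie above all other mice for each gene, and the other 4 lie among the 8 E3/Abca1+/+ sham mice for Ttr.

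Abca1 itself, on chromosome 4 (53030789 to 53159988), was lower in E3/Abca1+/- sham mice. It ranged from 28.9 to 41.0 CPM (median 34.8) in the 7 E3/Abca1+/- sham mice and from 37.2 to 59.8 CPM (median 47.1) in the 8 E3/Abca1+/+ sham mice. Only the highest Abca1+/- mouse and the lowest Abca1+/+ mouse overlap, and 6 of the 7 Abca1+/- mice lay below every Abca1+/+ mouse. The means were 34.9 ± 3.72 CPM (SD, n = 7) and 47.8 ± 6.74 CPM (SD, n = 8), a log2 fold change of -0.44 (SE 0.08, adjusted p = 0.00943), which is a change of -26.4%. The count pools reads over the whole gene, and which part of the gene is missing from the inactive copy is not given in the sources used here, so reads from a shortened transcript may be included. The call held when any 1 mouse was left out (adjusted p at most 0.0257) and with the GC and length trend described below removed (-0.41, adjusted p = 0.0149). It was not reached without the 3 mice with choroid plexus RNA (-0.38, adjusted p = 0.16) or with the library total as a covariate (-0.40, adjusted p = 0.264).

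Among the 14567 genes tested, 237 were higher (1.63%) and 129 were lower (0.886%) in E3/Abca1+/- sham mice at an adjusted p under 0.05. Most changes were small. The median change was 19.6% among genes called higher and -13.4% among genes called lower. A change of more than 1.5-fold was found for 13 of the higher and 3 of the lower genes, and of more than 2-fold for 3 and 2. The groups did not overlap for 83 of the 237 and 37 of the 129. Genes picked by a small p in these same mice tend to separate, so a lack of overlap here or below is no further support. The share without overlap over all 14567 genes was not counted. The numbers of genes called moved with the mice and the model. Leaving out 1 mouse gave 111 to 293 higher and 73 to 215 lower genes, leaving out the 3 mice with choroid plexus RNA gave 2 and 2, the 8 males alone gave 2 and 4, the 7 females alone gave 15 and 29, and the library total as a covariate gave 6 and 7.

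The gene that rose most firmly was Atp5j2 (chromosome 5, 145183704 to 145191541), which encodes subunit f of the mitochondrial ATP synthase. It was at 84.0 to 94.6 CPM (median 89.1) in the Abca1+/- mice and 33.6 to 47.1 CPM (median 39.6) in the Abca1+/+ mice. No mouse lay between the groups, and the log2 fold change was 1.20 (SE 0.05, adjusted p = 4.41e-11), a 2.29-fold higher level. Cox8a, a subunit of cytochrome c oxidase, was next, at 210 to 303 CPM (median 262) against 143 to 181 CPM (median 160.1), again without overlap (log2 fold change 0.65, SE 0.07, adjusted p = 0.000109). Both genes were also called without the 3 mice with choroid plexus RNA (log2 fold change 1.17 and 0.55) and with the library total as a covariate (1.25 and 0.69). Atp5j2 was called in males alone and in females alone, Cox8a in females alone. Related gene copies exist for several small mitochondrial and ribosomal genes, and reads that the authors' counting could split between near-identical copies make their levels uncertain.

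The other 10 genes with the smallest p among those higher were Gm19810, Ptms, Smdt1, Ccdc85b, Rplp2, C1qtnf4, Enho, Dohh, Grcc10 and Cox4i1. Their log2 fold changes were between 0.20 and 0.65, and for all 10 the lowest Abca1+/- mouse lay above the highest Abca1+/+ mouse. C1qtnf4, a secreted protein with C1q-like domains, was at 59.2 to 95.2 CPM (median 73.5) against 34.3 to 54.6 CPM (median 44.6). Smdt1, the EMRE subunit of the mitochondrial calcium uniporter, was at 57.9 to 65.5 CPM (median 63.0) against 47.3 to 56.7 CPM (median 51.8). Ptms, the acidic nuclear protein parathymosin, was at 389 to 442 CPM (median 410) against 320 to 368 CPM (median 337). Enho encodes the secreted peptide adropin, and Dohh the enzyme that completes hypusine on the translation factor eIF5A. Cox4i1, another subunit of cytochrome c oxidase, was at 387 to 422 CPM (median 401) against 333 to 374 CPM (median 349), so that a change of 15.2% was enough for full separation.

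Among the genes that fell, Nucks1 (chromosome 1, 131910458 to 131936321), a nuclear DNA-binding substrate of casein kinase, led. It was at 137 to 165 CPM (median 152) in the Abca1+/- mice and 185 to 228 CPM (median 208) in the Abca1+/+ mice, without overlap (log2 fold change -0.44, SE 0.05, adjusted p = 0.000109). Cd47, the surface protein by which cells signal to phagocytes not to engulf them, was at 52.2 to 62.1 CPM (median 55.2) against 66.0 to 81.4 CPM (median 69.6). Nucks1 and Cd47, with Atp5j2 and Cox8a, were the 4 genes called without the 3 mice with choroid plexus RNA (log2 fold change -0.43 and -0.35). Cbx3, the heterochromatin protein HP1 gamma, was at 8.62 to 11.2 CPM (median 9.88) against 12.1 to 16.7 CPM (median 14.5), the largest relative fall among the genes named here (log2 fold change -0.55, SE 0.08, adjusted p = 0.00312). The next 8 named were Kantr, Lrrc58, Impad1, Ube3a, Tbl1xr1, Klhl9, Gtf2a1 and Elavl1, with log2 fold changes between -0.42 and -0.22, and 6 of these 8 had no overlap between groups. Ube3a, the ubiquitin ligase lost in Angelman syndrome, was at 62.5 to 69.8 CPM (median 67.3) against 71.7 to 90.8 CPM (median 81.8). Elavl1 encodes the RNA-stabilizing protein HuR, Tbl1xr1 a subunit of the NCoR corepressor, Gtf2a1 a subunit of the general transcription factor TFIIA and Kantr a noncoding RNA. All 23 genes named here and Abca1 were called whichever mouse was left out. Without the 3 mice with choroid plexus RNA, the genes of these 23 that were not called had an adjusted p between 0.0941 and 0.118, with log2 fold changes of 0.18 to 0.57 among the higher and -0.52 to -0.22 among the lower genes.

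**Figure D2:**
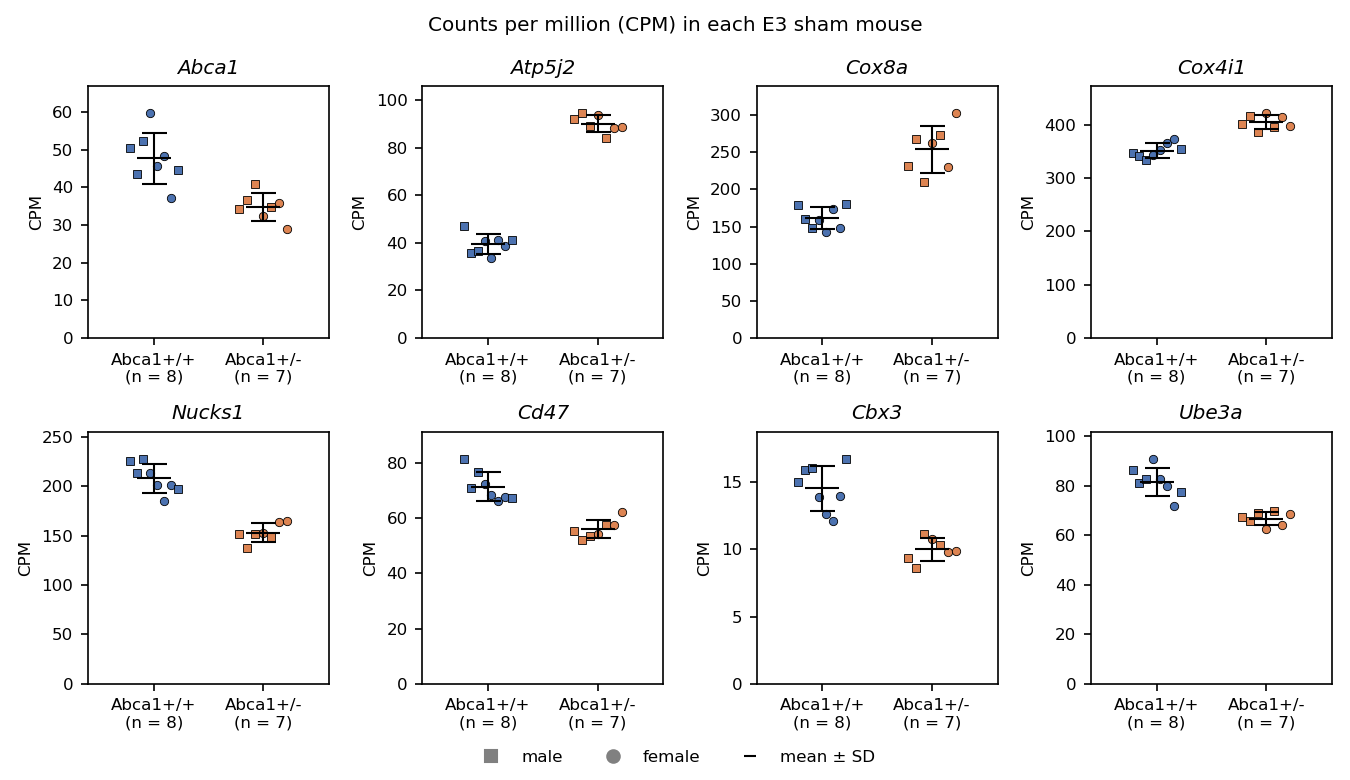
Each point is 1 mouse, the vertical axis is CPM from 0, and bars are the mean and SD of 8 E3/Abca1+/+ (blue) and 7 E3/Abca1+/- (orange) sham mice. Atp5j2, Cox8a, Cox4i1, Nucks1, Cd47, Cbx3 and Ube3a separate the genotypes without overlap, and Abca1 overlaps by 1 mouse of each group.

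The direction of change followed the composition of the transcripts across all genes. Genes were sorted by the GC content of their longest annotated transcript and cut into 5 bins of 2885 or 2886 genes. The median log2 fold change was -0.07 in the bin of lowest GC content, then -0.03, -0.003 and 0.03, and 0.08 in the bin of highest GC content. Of the genes called lower, 88 lay in the lowest bin and 0 in the 2 highest bins, and of those called higher, 135 lay in the highest bin and 7 in the lowest. Length showed the reverse order, since 156 of the genes called higher lay in the bin of the shortest transcripts (67 to 2003 bases) and 65 of those called lower in the bin of the longest (5363 bases and more). The median transcript was 1526 bases long with 56.5% GC among genes called higher (236 of 237 with a value), 5498 bases with 42.0% GC among genes called lower (127 of 129), and 3450 bases with 49.8% GC among all genes tested. Per mouse, the median level of the highest GC bin minus that of the lowest, each relative to the mean of all 15 mice on the log2 scale, was 0.01 to 0.16 in Abca1+/- mice and -0.20 to 0.04 in Abca1+/+ mice. Across genes, which are not independent replicates, Spearman's rho of the log2 fold change with GC content was 0.446 in this pair (14429 genes). It was 0.331 in the E3 TBI pair, 0.014 in the E4 sham pair and -0.046 in the E4 TBI pair. In these pairs too the Abca1+/- group was deeper by its median, but single libraries overlapped widely in the E4 TBI pair. With transcript length, rho was -0.316 in this pair, -0.228 in the E3 TBI pair, -0.268 in the E4 sham pair and -0.421 in the E4 TBI pair, so the order by length was seen in all 4 pairs. The part of depth in this trend was not tested.

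When the smooth trend of each library over GC content and length was removed, 23 genes were higher (0.158%) and 30 lower (0.206%), and 44 of these 53 were among the 366. Among the 12 genes higher by smallest p, Atp5j2 (1.16), Cox8a (0.46), Gm19810 (0.48), Ccdc85b (0.49), Rplp2 (0.25), C1qtnf4 (0.29) and Grcc10 (0.24) were still called, with the log2 fold changes in brackets. Ptms was at -0.004, and Cox4i1 (0.04), Enho (0.06), Dohh (0.16) and Smdt1 (0.16) were no longer called. All 11 of the genes named as lower were called, with log2 fold changes between -0.49 for Cbx3 and -0.17 for Klhl9.

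**Figure D3:**
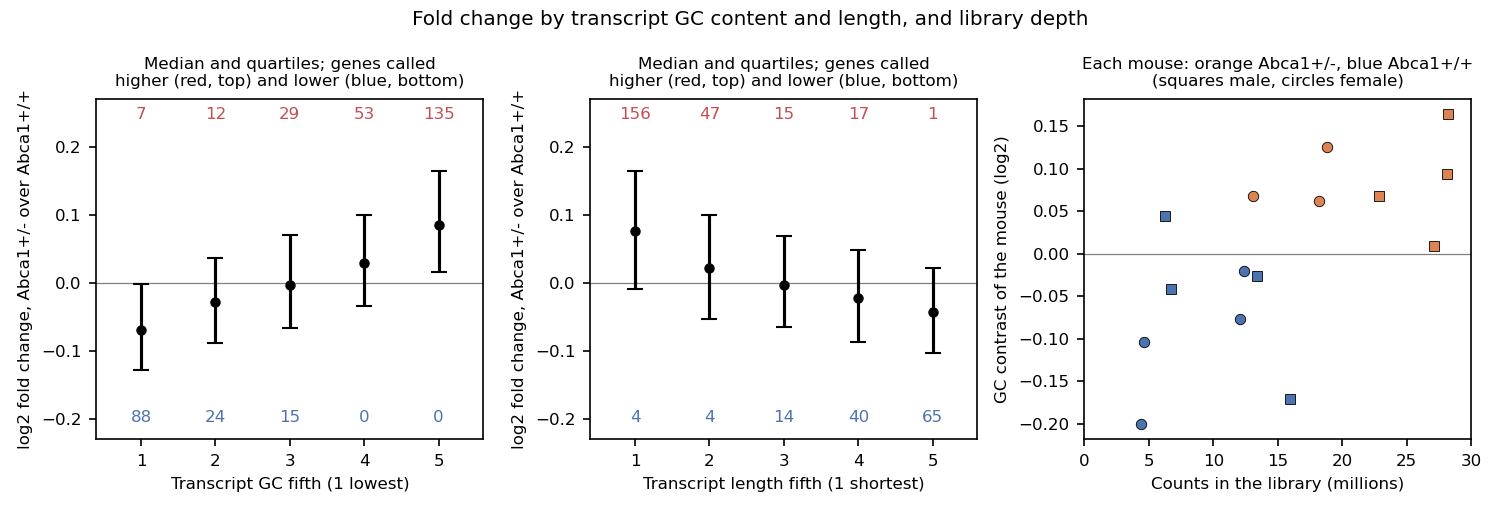
Left and middle, the median log2 fold change with quartiles in 5 bins of transcript GC content and length, with the number of genes called higher (top) and lower (bottom). Right, the GC contrast of each mouse (log2) against its count total. The median runs from -0.07 to 0.08 with GC content, and the Abca1+/- mice (orange) all have contrasts above 0, and 6 of 7 lie to the right of every Abca1+/+ mouse (blue).

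Abca1 was the only gene of cholesterol efflux and LXR signalling that passed the test. Of 26 genes tested, none of the others was called (3.85% lower with Abca1, against 0.886% of all genes), and the median log2 fold change of the list was 0.01 against 0.001 over all genes. The 26 include the row for mouse Apoe, which does not measure the human gene. Abcg1, the partner transporter that loads cholesterol onto formed particles, had a log2 fold change of -0.06 (SE 0.05, adjusted p = 0.61). The receptor genes Nr1h2 (LXR beta) and Nr1h3 (LXR alpha) were at 0.14 (SE 0.08) and -0.16 (SE 0.16). Srebf1, with a match to the pattern of the Abca1 promoter, ranged from 54.3 to 66.5 CPM (median 62.8) in Abca1+/- mice and from 40.8 to 63.7 CPM (median 52.0) in Abca1+/+ mice. The groups overlap, and the log2 fold change of 0.18 (SE 0.07) did not pass (adjusted p = 0.19). Cyp46a1, the neuronal enzyme that makes 24S-hydroxycholesterol for export from brain, was at 0.14 (SE 0.04, adjusted p = 0.104). Of the 6 genes with a match to the pattern that were tested, Abca1 alone passed. Fasn (0.04, SE 0.06) and Acsl3 (-0.06, SE 0.04) did not.

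Sterol and fatty acid synthesis held 1 call. Of 27 genes of sterol synthesis and uptake, Mvk, the mevalonate kinase, was higher (3.70%, against 1.63% of all genes) and none was lower, with a median log2 fold change of 0.05. Mvk was at 18.9 to 22.8 CPM (median 20.0) in Abca1+/- mice and 11.3 to 18.7 CPM (median 16.3) in Abca1+/+ mice, without overlap (log2 fold change 0.32, SE 0.08, adjusted p = 0.0441), but it was called in only 3 of the 15 fits that left out 1 mouse and not without the 3 mice with choroid plexus RNA (0.33, adjusted p = 0.267). None of 14 fatty acid synthesis genes passed, and Fads2, a desaturase, came nearest (0.13, SE 0.04, adjusted p = 0.074).

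Genes of the respiratory chain held more calls than any other list. Of 75 nuclear-encoded oxidative phosphorylation genes tested, 19 were higher (25.3%, against 1.63% of all genes) and 0 lower (against 0.886%), 68 had a log2 fold change above 0 (90.7%, against 50.4% of all genes), and the median was 0.11. The calls covered complex I (Ndufa1, Ndufa2, Ndufa7, Ndufa11, Ndufb6, Ndufb8, Ndufb9, Ndufs7), complex III (Uqcr10, Uqcrq), complex IV (Cox4i1, Cox6a1, Cox6b1, Cox8a) and the ATP synthase (Atp5d, Atp5e, Atp5g3, Atp5j2, Atp5k). Ndufa11, an accessory subunit of complex I, was at 60.9 to 68.2 CPM (median 62.5) against 46.2 to 58.2 CPM (median 52.9), without overlap. With the GC and length trend removed the median was 0.04 and 4 of the 19 remained called, namely Atp5j2, Cox8a, Atp5e and Ndufb8. Without the 3 mice with choroid plexus RNA the median was 0.09 and 2 were called.

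Of the 13 protein genes of the mitochondrial genome, 1 was lower (7.69%, against 0.886% of all genes) and 0 higher (against 1.63%), 10 were below 0, and the median log2 fold change was -0.21. ND2, a complex I subunit, was lower (-0.29, SE 0.06, adjusted p = 0.0175), at 2008 to 2649 CPM (median 2384) against 2441 to 3270 CPM (median 2834), with overlap. ND1 and ND4 did not pass (adjusted p = 0.0559 and 0.0569). With sex as a covariate 3 of the 13 were lower. With the trend removed the median of the 13 was -0.20 and ND2 was no longer called at a similar size (-0.27, adjusted p = 0.1). Without the 3 mice with choroid plexus RNA ND2 was at -0.25 (adjusted p = 0.199). In the 7 females ND2 was at -0.45 (adjusted p = 0.00459) and in the 8 males at -0.18 (adjusted p = 0.351), and the difference between the sexes was not tested. Of the 3 Abca1+/- females, replicates 4 and 7 held choroid plexus RNA. Replicates 6 and 7 were the libraries with the largest share of counts in their 50 top genes. The values in females therefore cannot be told apart from these traits of the libraries.

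Of 78 cytosolic ribosomal protein genes, 10 were higher (12.8%, against 1.63% of all genes) and 1 lower (1.28%, against 0.886%), and the median log2 fold change was 0.06. Rplp2, of the ribosomal stalk, was at 30.4 to 36.8 CPM (median 33.0) against 22.9 to 27.9 CPM (median 25.7), without overlap, and Rps15, Rpl8 and Rps21 followed with log2 fold changes of 0.23, 0.24 and 0.32. The 1 called lower, Rps29, was high in 2 libraries. It was at 28.8 and 27.8 CPM in Abca1+/+ replicates 1 and 8, at 2.03 to 5.85 CPM in the other 6 and at 0.99 to 2.55 CPM in the Abca1+/- mice. Without either of the 2 libraries it was not called (adjusted p = 0.109 and 0.0888), and it was called in 5 of the 15 fits that left out 1 mouse. Its log2 fold change was -2.30 here. It was -2.47 in the E4 sham pair (adjusted p = 0.081), -2.04 in the E3 TBI pair (adjusted p = 0.281) and -2.45 in the E4 TBI pair (adjusted p = 0.0622). With the trend removed 2 ribosomal genes were higher (Rplp2, Rps3), 0 lower, and the median was 0.002. Without the 3 mice with choroid plexus RNA the median was 0.04, and Rplp2 was at 0.29 (adjusted p = 0.108), Rps15 at 0.21 (adjusted p = 0.149), Rpl8 at 0.21 (adjusted p = 0.149) and Rps21 at 0.26 (adjusted p = 0.16).

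Markers of glia held 1 call in each of 2 lists, 1 of 29 microglia markers higher (3.45%, against 1.63% of all genes) and 1 of 16 homeostatic astrocyte markers lower (6.25%, against 0.886%). Of the microglia markers, Trem2, the lipid-sensing receptor that also binds APOE, was higher (0.32, SE 0.09, adjusted p = 0.04998), at 10.5 to 15.6 CPM (median 11.7) against 9.10 to 11.5 CPM (median 9.59). It was called in 2 of the 15 fits that left out 1 mouse and not without the 3 mice with choroid plexus RNA (0.36, adjusted p = 0.208), and Ctss (0.15, adjusted p = 0.291) and C1qc (0.15, adjusted p = 0.362) did not pass. The summed microglia markers spanned 767 to 950 CPM in Abca1+/- and 733 to 941 CPM in Abca1+/+ mice, and none of 14 markers of activated microglia and interferon response passed. Of the homeostatic astrocyte markers, Slc1a2, the main glutamate transporter of astrocytes, was lower, at 3287 to 3664 CPM (median 3454) against 3419 to 4562 CPM (median 3978). Its log2 fold change was -0.21 (SE 0.05, adjusted p = 0.0173), and -0.17 with the trend removed (adjusted p = 0.0114). It was not called without the 3 mice with choroid plexus RNA (-0.21, adjusted p = 0.199) or with the library total as a covariate (-0.22, adjusted p = 0.288). None of 11 reactive astrocyte markers passed, with Gfap at -0.18 (SE 0.10) and C4b at -0.22 (SE 0.12). Of the 11, 9 were below 0 (18.2% above 0, against 50.4% of all genes), and the median was -0.18. Genes of a list are not independent replicates, and the mean level of this list had an SD of 0.18 (log2) between mice of a group. None of 16 myelin, 8 oligodendrocyte precursor and 17 vascular markers passed, and the nearest was Olig1, a factor of the oligodendrocyte lineage (0.20, SE 0.06, adjusted p = 0.0789).

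Among neuronal lists, 2 of 13 interneuron markers (15.4%, against 1.63% of all genes) were higher, the neuropeptide genes Sst and Cck. Sst was at 157 to 179.7 CPM (median 166) in Abca1+/- mice and 111 to 149.9 CPM (median 143) in Abca1+/+ mice, without overlap (0.28, SE 0.06, adjusted p = 0.0115), and Cck had a log2 fold change of 0.21 (SE 0.04, adjusted p = 0.0149). With the trend removed neither was called (0.14 and 0.06). Tle4, a corepressor of deep cortical layers, was the 1 gene lower among 18 layer markers (5.56%, against 0.886% of all genes). Its log2 fold change was -0.19 (adjusted p = 0.0351), and it was called in 7 of the 15 fits that left out 1 mouse. None of 18 hippocampal, 11 striatal or 12 thalamic markers passed. Of 38 synaptic vesicle genes, Sncb (beta-synuclein, 0.24) and Syp (synaptophysin, 0.12) were higher (5.26%, against 1.63% of all genes), Syp in 2 of the 15 fits that left out 1 mouse. Cacnb3, a calcium channel subunit, was the only call among 46 voltage-gated channel genes (2.17% higher, against 1.63% of all genes), at 0.16 (SE 0.03, adjusted p = 0.0142). None of 22 glutamate receptor genes passed, with Grik5 at 0.16 (adjusted p = 0.054) and Gria2 at -0.12 (adjusted p = 0.109). With the trend removed, Sncb was at 0.06 (adjusted p = 0.761) and Cacnb3 at 0.02 (adjusted p = 0.916), while Syp kept its size at 0.13 (adjusted p = 0.0641). Without the 3 mice with choroid plexus RNA none of the neuronal calls passed, with Sst at 0.27 (adjusted p = 0.16), Cck at 0.16 (adjusted p = 0.267), Tle4 at -0.14 (adjusted p = 0.372), Sncb at 0.26 (adjusted p = 0.145), Syp at 0.13 (adjusted p = 0.182) and Cacnb3 at 0.14 (adjusted p = 0.21).

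Immediate early genes, which neurons switch on with activity, were above 0 for 26 of 29 genes (89.7%, against 50.4% of all genes), with a median log2 fold change of 0.18. The median was 0.12 with the trend removed. Genes of a list are not independent replicates, and the mean level of this list had an SD of 0.30 (log2) between mice of a group. Only Jund passed (3.45% higher, against 1.63% of all genes), at 0.33 (SE 0.08, adjusted p = 0.0427). It was at 73.5 to 100.9 CPM (median 87.6) against 56.6 to 83.5 CPM (median 65.5). Jund was called in 5 of the 15 fits that left out 1 mouse, and its log2 fold change was 0.05 with the trend removed (adjusted p = 0.793) and 0.23 without the 3 mice with choroid plexus RNA (adjusted p = 0.422). The classic activity markers varied between mice of 1 group, as Egr4 did, at 13.9 to 34.3 CPM (median 22.2) against 5.42 to 27.6 CPM (median 13.8), and Junb, at 40.8 to 78.1 CPM (median 67.1) against 22.3 to 65.1 CPM (median 36.9). Of 33 chromatin modifier genes, 1 was higher (3.03%, against 1.63% of all genes). This was Ehmt2, the H3K9 methyltransferase G9a (0.17, SE 0.04, adjusted p = 0.0142), without overlap, at 206 to 225 CPM (median 211) against 174 to 197 CPM (median 189.7). Its log2 fold change was 0.07 with the trend removed (adjusted p = 0.517) and 0.18 without the 3 mice (adjusted p = 0.16). None of 28 heat shock and ER chaperone genes and none of 31 tRNA synthetase and ATF4 target genes passed, with Canx at -0.18 (adjusted p = 0.064) and Ddit3 at 0.19 (adjusted p = 0.126).

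Markers of tissue at the edge of the dissection were read for the same reason as those of the choroid plexus. None of 6 ependymal markers passed, all 6 were above 0 (median 0.39), and their median was -0.14 without the 3 mice with choroid plexus RNA. None of 11 meningeal fibroblast markers passed (median -0.01), and none of the 2 red blood cell markers that could be tested. Adora2a, a receptor of striatal neurons, was at 1.58 to 9.42 CPM (median 3.16) against 1.52 to 3.38 CPM (median 1.81), a log2 fold change of 1.08 (adjusted p = 0.15) that was 0.12 without the 3 mice. Ppp1r1b, another striatal marker, was at 77.2, 76.9 and 69.0 CPM in replicates 2, 4 and 7, the same 3 mice. It was at most 55.5 CPM in every other mouse. Its log2 fold change was 0.32 (adjusted p = 0.13), and 0.05 without the 3 mice. Of the 11 striatal markers 7 were above 0, and their median was 0.05. Gpr6 was at 0.40, Penk at 0.28, Drd1 at 0.05, Drd2 at -0.04 and Pde10a at -0.18.

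**Figure D4:**
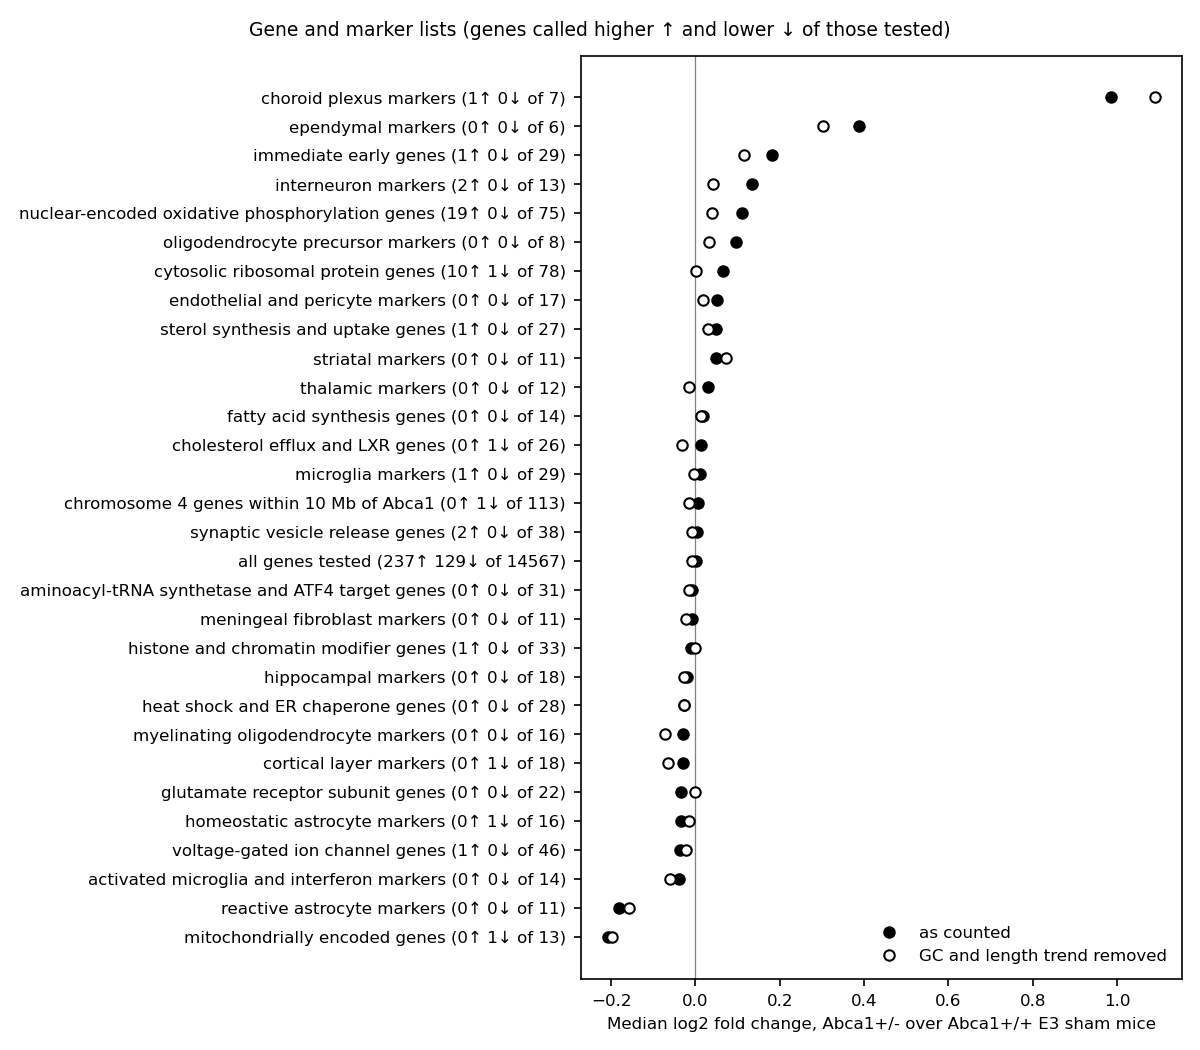
Median log2 fold change of each gene and marker list, as counted (filled) and with the GC and length trend removed (open), with the number of genes called higher and lower of those tested. The median of the oxidative phosphorylation genes moves from 0.11 to 0.04 and that of the ribosomal genes from 0.06 to 0.002, while mitochondrially encoded genes stay near -0.20.

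Genes beside Abca1 were examined because DNA next to a disrupted gene can come from the strain in which it was made. Of 113 other genes tested within 10 Mb of Abca1 on chromosome 4, 1 was lower (0.885%) and 0 higher, against 0.886% lower and 1.63% higher over all genes, so the share called lower was that of the background. The gene was Ugcg (59189507 to 59222833), the enzyme of glucosylceramide synthesis, at 91.2 to 105.6 CPM (median 96.3) against 101.0 to 118.5 CPM (median 108), a log2 fold change of -0.16 (SE 0.04, adjusted p = 0.0327). It was called in 7 of the 15 fits that left out 1 mouse and not without the 3 mice with choroid plexus RNA (-0.14, adjusted p = 0.334).

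The same genotype contrast was set beside that of the 3 other pairs of groups, which share no mouse with the E3 sham pair. They too were deeper in the Abca1+/- group by median (15116304 to 20511272 counts, against 6835372 to 9715595 in Abca1+/+ groups). Single libraries did not overlap in the E4 sham pair (18311106 to 28467098 against 4695676 to 14064531). They overlapped in the E3 TBI pair (12165681 to 21199410 against 4719044 to 17148953) and widely in the E4 TBI pair (5471936 to 37877346 against 5192820 to 14939612). In the E4 sham pair (7 against 7 mice), 55 genes were higher (0.373%) and 91 lower (0.617%). In the E3 TBI pair (6 against 8), 13 were higher (0.0869%) and 14 lower (0.0935%), and in the E4 TBI pair (8 against 7), 83 were higher (0.559%) and 135 lower (0.909%). Of the 237 genes higher in E3 sham mice, 214 had the same sign in the E4 sham pair, 232 in the E3 TBI pair and 167 in the E4 TBI pair, where 15, 12 and 14 were called. Of the 129 lower genes, 127, 129 and 122 had the same sign, and 25, 10 and 19 were called. Over all genes tested in both, the same sign was found for 61.5%, 67.3% and 60.6%.

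Atp5j2 was higher in all 4 pairs, with log2 fold changes of 1.13 in E4 sham mice (SE 0.06), 1.21 in E3 TBI mice (SE 0.06) and 1.13 in E4 TBI mice (SE 0.09). Nucks1 was lower in all 4, at -0.33, -0.48 and -0.29 in the same order. Cbx3 (-0.59, -0.52, -0.45), Cd47 (-0.20, -0.33, -0.33) and Lrrc58 (-0.28, -0.30, -0.27) were also lower in all 4, and Gm16089, a predicted gene, was higher (0.58 in E3 sham mice and 0.40, 0.55 and 0.65 in the others). With the GC and length trend removed, Atp5j2 and Nucks1 were still called in all 4 pairs. Cbx3 was then called in all but the E3 TBI pair (adjusted p = 0.0539). Cd47 and Lrrc58 were called in E3 sham mice only, and Gm16089 in the E4 TBI pair only (adjusted p = 0.0456). C1qtnf4 had a log2 fold change of 0.65 in the E3 TBI pair, 0.05 in the E4 sham pair and -0.22 in the E4 TBI pair, and was called in none of these 3. The mitochondrial gene ND2 was called lower in the E4 sham pair (-0.52, adjusted p = 0.000167) and the E4 TBI pair (-0.37, adjusted p = 0.01). It was not called in the E3 TBI pair (-0.30, adjusted p = 0.25). Abca1 was at -0.35 (adjusted p = 0.08) in the E4 sham pair, -0.71 (adjusted p = 0.117) in the E3 TBI pair and -0.19 (adjusted p = 0.718) in the E4 TBI pair.

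The differences between pairs were tested as interactions. No gene passed in the comparison of the E3 sham contrast with the E4 sham contrast (0 of 14894 by edgeR and by DESeq2, with 1092 and 1015 genes at an unadjusted p under 0.05). No gene passed against the E3 TBI contrast either (0 of 15098 by both, with 320 and 284 at an unadjusted p under 0.05). For Abca1 the interaction was -0.10 (SE 0.13) with isoform and 0.27 (SE 0.20) with injury on the log2 scale. Gfap and C4b, below 0 in E3 sham mice, were at 0.56 (adjusted p = 0.109) and 0.40 (adjusted p = 0.373) in the E4 sham pair. Their interactions with isoform were -0.74 (SE 0.21) and -0.63 (SE 0.27). By edgeR the unadjusted p was 0.00106 and 0.0254, and neither passed (adjusted p = 0.631 and 0.676). For C1qtnf4 the difference from E4 sham mice was 0.60 (SE 0.30, unadjusted p = 0.0552 and adjusted p = 0.685 by edgeR) and did not pass.

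**Figure D5:**
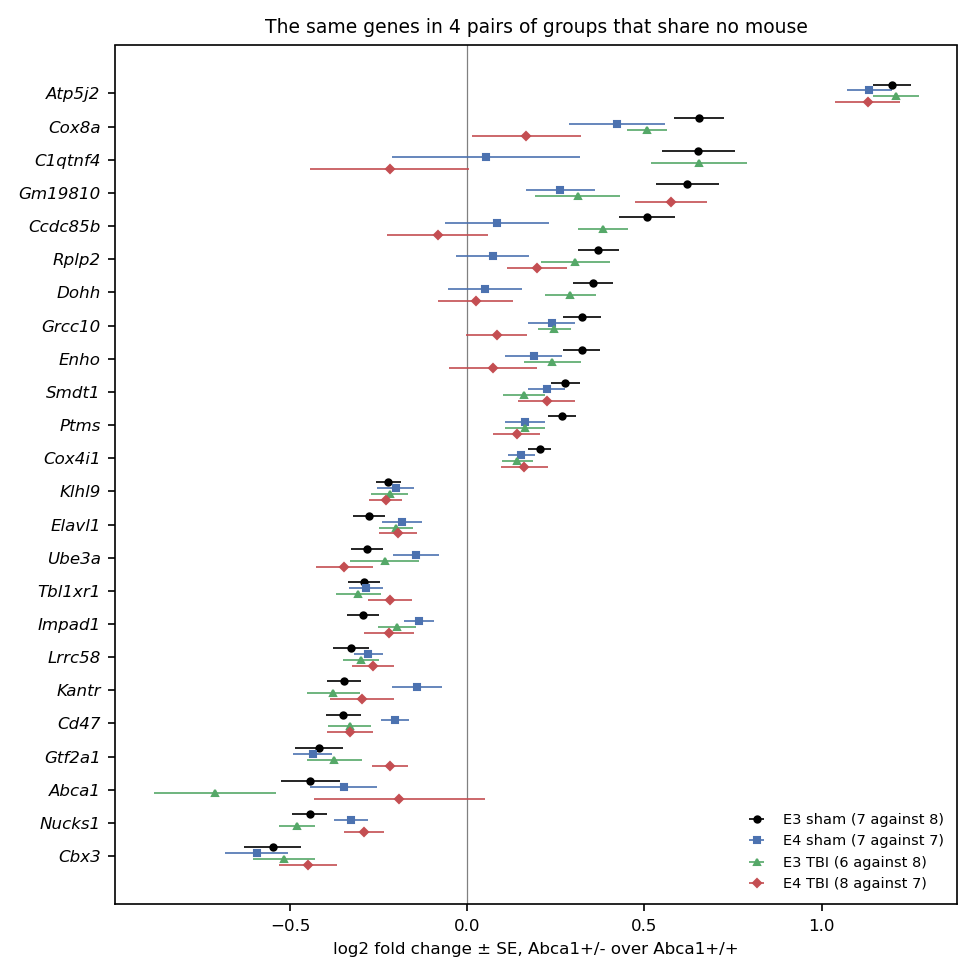
Log2 fold change and SE of 23 leading genes and Abca1 in 4 pairs of groups that share no mouse. Atp5j2 lies between 1.13 and 1.21 in every pair and the 11 lower genes shown lie below 0 in every pair, while Ccdc85b and Dohh lie between -0.08 and 0.08 in both E4 pairs.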

How the data were processed

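RNA-seq of hippocampus and cortex of 58 mice was deposited as 1 table of counts per gene. Per the labels, the submitters' processing notes name mm10, Subread 1.5.0, featureCounts and edgeR. The authors aligned reads and counted them per gene with Subread/featureCounts, the strand setting is not given in the sources used here, and the deposited counts are whole numbers without normalization. Of 15171 genes, 2 blank lines were removed and 23 damaged symbols were renamed from their gene identifiers. Positions came from RefSeq (GRCm38.p6), and transcript length and GC content from the longest GENCODE M21 transcript (99.0% of genes), in place of the RefSeq transcript length foreseen. Promoters came from RefSeq.

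Groups were taken from the labels. Counts of the 15 mice were filtered (filterByExpr), scaled with TMM factors (0.962 to 1.019) and compared with edgeR's quasi-likelihood test, with Benjamini-Hochberg adjustment over all 14567 genes and a threshold of 0.05. SE is the size of the log2 fold change divided by the root of F. CPM use the same scaling. Pairs and interactions used the groups concerned. The trend over GC content and length was fitted in each library with natural splines (4 degrees of freedom each) and entered as an offset, an alternative chosen after seeing the data, as was leaving out the 3 mice. Genes under a mean of 1 CPM did not enter the spline fit. Scripts were tested on simulated data. Depth of 4421308 to 28184924 counts per library limits the precision of low genes. In the shallowest library 3 counts are 0.679 CPM, and such limits cover counting error only.

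Named genes are Abca1, the 12 with the smallest p in each direction, called members of each list (the 4 smallest p where over 10 passed, and up to 3 genes as values where fewer than 2 passed), and called genes near Abca1, apart from genes that are not reported here. Other genes named (list members with values, calls that remained, Fasn, Gm16089) were chosen after their values were seen. Members and lists were chosen with earlier results of these data known. Software was R 4.3.3, edgeR 4.0.16, DESeq2 1.42.0, Python 3.11.15, numpy 2.4.6, pandas 2.3.3 and matplotlib 3.10.9.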

Additional observations from a re-analysis of the deposited data

Results flagged for a closer look

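In 162 groups of values checked for an outlying mouse (the named genes and measures of the libraries in each group), 5 had a highest mouse further from its neighbour than Dixon's 95% critical value allows, and chance alone flags about 1 in 20. Rpl8 was at 243 CPM in E3/Abca1+/- replicate 4 (next 224.5 CPM), which is 1 of the 3 mice with choroid plexus RNA. Canx was at 477 CPM in E3/Abca1+/- replicate 1 (next 429.6 CPM). Fasn was at 355 CPM in E3/Abca1+/- replicate 7 (next 331.3 CPM), another of those 3 mice. Klhl9 was at 166.8 CPM in E3/Abca1+/+ replicate 3 (next 151 CPM). C4b was at 59.8 CPM in E3/Abca1+/+ replicate 8 (next 38.8 CPM), the same mouse in which Rps29 was high. Klhl9 and Rpl8 were called whichever mouse was left out.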

How the results depend on the processing

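With DESeq2's Wald test 403 genes were higher and 325 lower, and with sex as a covariate 195 were lower. Thinning every library to the lowest total gave 99 higher and 68 lower, and a single fit over all 58 mice gave 136 higher. Males alone gave 2 and 4 and females alone 15 and 29, with Abca1 at -0.39 (adjusted p = 0.0957) and -0.54 (adjusted p = 0.102). The library total as a covariate gave 6 and 7, removal of the GC and length trend 23 and 30, and leaving out the 3 mice with choroid plexus RNA 2 and 2. Abca1 was not called in the fit over all 58 mice (-0.45, adjusted p = 0.253), with the library total (-0.40) or without the 3 mice (-0.38). Leaving out 1 mouse gave 111 to 293 higher genes, 73 to 215 lower genes, and -0.50 to -0.40 for Abca1. The higher count fell by more than 1.5 times without E3/Abca1+/+ replicate 3 (111) or 5 (154) or E3/Abca1+/- replicate 2 (151), 4 (122), 5 (157) or 7 (119), and the lower count without E3/Abca1+/+ replicate 3 (80) or E3/Abca1+/- replicate 2 (73) or 4 (83). It rose to 215 without E3/Abca1+/+ replicate 7. Signs turned for Ptms (-0.0045), Rps15 (-0.0172), Nr1h2 (-0.00441) and Fasn (-0.00551) with the trend removed, for Gfap (0.0625), C4b (0.0844), Abcg1 (0.0767) and Nr1h3 (0.197) in females, for Fasn (-0.0833) in males, for Nr1h3 (0.129) after thinning, for C4b (0.0886) and Fasn (-0.0095) with the library total, and for Clic6 (-0.69) and Enpp2 (-0.143) without the 3 mice. The cause was not tested. Of 45 named calls, 37 held whichever mouse was left out. Of the 44 beside Abca1, 21 held with the trend removed, 36 after thinning, 44 with sex as a covariate, 44 with DESeq2's test, 32 in the fit over all 58 mice, 6 with the library total, 5 in males, 5 in females and 4 without the 3 mice. Both interactions stayed at 0 genes under every alternative run. No paired analysis was possible because the labels carry no replicate number that mice of the groups share.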
